A study of Arabidopsis thaliana with 6 samples.

Results

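AT1G10585 and JMT are 2 nuclear genes of Arabidopsis thaliana on chromosome 1. AT1G10585 encodes a basic helix-loop-helix (bHLH) transcription factor, and JMT (locus AT1G19640) encodes jasmonic acid carboxyl methyltransferase. They were taken as the probe sets that name either gene alone in the platform annotation, which gave 1 probe set each. They are 2 of 13350 genes named in this way on the array, which holds 22746 plant probe sets in all. Both genes were picked because their values were higher in epiF3 plants than in wild type, so that difference is a description here and is given without a test. Array values came from the aerial part of 30-day-old plants, in 3 epiF3 arrays and 3 arrays of the Col-0 wild type. Each array carried biotin-labelled cRNA on an Affymetrix expression array, and by the titles the arrays of a group are biological replicates. Plants of both groups are labelled with the Col-0 ecotype and were grown in metro mix with 12 h of daylight at 22 °C, and no treatment is named. Titles and source names give the first group as epiF3, whereas the description of the same samples speaks of albino plants mutant for msh1. How both names relate is not stated, and MSH1 is not analysed here.

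Jasmonates are lipid-derived hormones of wounding, defence and flower development. Jasmonic acid is conjugated to isoleucine to give the form that the receptor COI1 binds, which releases MYC transcription factors, themselves bHLH proteins, from their JAZ repressors. JMT belongs to the SABATH family of methyltransferases and turns jasmonic acid into its volatile methyl ester. Jasmonate oxidases (JOX) hydroxylate jasmonic acid and so draw on the same substrate. Proteins with a bHLH domain pair with each other and bind short E-box motifs in DNA.

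AT1G10585 had log2 values of 5.79, 7.09 and 7.09 on epiF3 arrays 1 to 3, against 2.57, 2.43 and 3.58 on wild-type arrays 1 to 3. The groups did not overlap, and the lowest epiF3 array lay 2.21 log2 units above the highest wild-type array, wild type replicate 3. The mean was 6.66 ± 0.75 for the epiF3 arrays and 2.86 ± 0.63 for the wild-type arrays (SD, n = 3 each), a difference of 3.80 with a limma standard error of 0.42, or 13.9-fold on the array scale. In epiF3 the transcript stood at percentiles 70.3, 85.9 and 86.6 of all probe sets on its array, and in wild type at percentiles 30.2, 26.7 and 43.0. Low values of these arrays pile up near the bottom of the scale, so a difference measured from wild-type replicates 1 and 2 may be understated.

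JMT had log2 values of 6.92, 7.86 and 7.55 on epiF3 arrays 1 to 3, against 5.35, 4.63 and 6.46 on wild-type arrays 1 to 3. Again no epiF3 array overlapped with wild type, but the gap between the nearest arrays was only 0.46 log2 units. The mean of JMT was 7.44 ± 0.48 for the epiF3 arrays and 5.48 ± 0.93 for the wild-type arrays (SD, n = 3 each), a difference of 1.96 with a limma standard error of 0.44, or 3.90-fold. Unlike AT1G10585, JMT was well up the scale in wild type too, at percentiles 64.0, 53.5 and 79.1, and reached percentiles 84.6, 91.6 and 90.0 in epiF3. In these whole aerial parts, more cells with a transcript and more of it per cell cannot be told apart.

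**Figure D1:**
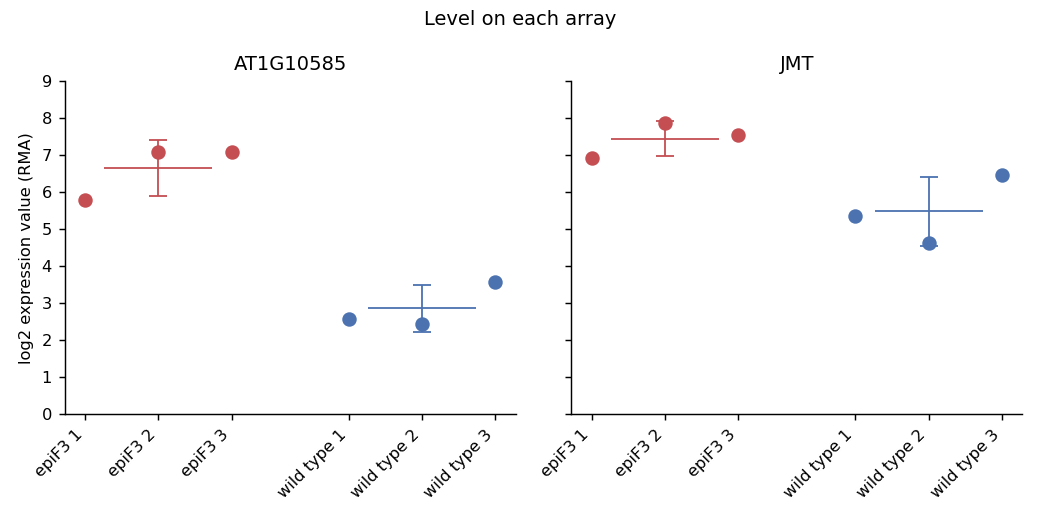
Log2 expression value of AT1G10585 (left) and JMT (right) on each array (points), with epiF3 left of wild type; the wide dash and bar are the group mean and SD (n = 3). All 3 epiF3 arrays sit above all 3 wild-type arrays for both genes, by 2.21 log2 units for AT1G10585 and by 0.46 for JMT, and wild type replicate 3 is the highest of its group for both.

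Among the 13513 probe sets that name 1 gene, the difference of AT1G10585 was the 2nd highest and that of JMT the 12th highest. In limma, with Benjamini-Hochberg adjustment over all 22746 probe sets, 61 probe sets (0.268%) passed the threshold of 0.05 as higher in epiF3. AT1G10585 was among them and JMT was not, and since both genes were chosen from this comparison nothing further is read from it. Arrays of the groups did not overlap, with epiF3 higher, for 9.75% of all probe sets, and both genes belong to these by the way they were chosen.

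Within the groups, both genes varied more than most transcripts. Their SD exceeded that of 99.0% (AT1G10585) and 92.9% (JMT) of probe sets among the epiF3 arrays, and that of 96.7% and 98.6% among the wild-type arrays. Among wild-type arrays alone, replicate 3 was above replicate 2 by 2.22-fold for AT1G10585 and by 3.57-fold for JMT. For JMT, wild type replicate 3 exceeded the mean of the other two wild-type arrays by 1.48 log2 units and lay 0.98 units below the epiF3 mean. For AT1G10585 the same distances were 1.08 and 3.08 units, so wild type replicate 3 lay nearer to the other wild-type arrays than to the epiF3 mean. Wild-type replicates 1 and 2 of AT1G10585 were low on the scale, so the distance of 1.08 may be understated.

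The deviations of AT1G10585 and JMT from their group means ran the same way on every array. On epiF3 arrays 1 to 3, AT1G10585 deviated by -0.87, 0.43 and 0.44 and JMT by -0.52, 0.42 and 0.10. On wild-type arrays 1 to 3, AT1G10585 deviated by -0.29, -0.43 and 0.72 and JMT by -0.13, -0.85 and 0.98. Both genes were thus lowest on replicate 1 in epiF3, and in wild type lowest on replicate 2 and highest on replicate 3. The order of replicates 2 and 3 in epiF3 differed between the genes, although AT1G10585 was nearly equal on both. With 3 arrays a group, a correlation within groups cannot be tested. As a description, the same wild-type order together with epiF3 replicate 1 as the lowest of its group occurred in 5.38% of all probe sets.

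The root mean square difference between the deviations of both genes was 0.29 log2 units. By this measure within groups JMT ranked 20 of 13512 other probe sets in likeness to AT1G10585, for which the median probe set differed by 0.58. Setting out from JMT, AT1G10585 ranked 21, and the median was 0.62. The root mean square of the gene's own deviations was 0.57 for AT1G10585 and 0.60 for JMT, which is the distance to a transcript that does not vary. Both medians are close to it, so these ranks depend on how much a gene varies as well as on its order of arrays. With the group difference included, the distance between the genes was 0.96. JMT was then the 5th nearest to AT1G10585, and AT1G10585 was 519th nearest to JMT, because the difference of AT1G10585 between groups was larger.

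The level of hybridization controls, bacterial and phage transcripts that are not from the plant, ran in the same order as both genes in wild type. In epiF3 these controls ran in the order of AT1G10585, and were lowest on replicate 1, as was JMT. The mean of 18 such probe sets was 8.19, 8.36 and 10.5 on epiF3 arrays 1 to 3, and 7.53, 7.11 and 8.21 on wild-type arrays 1 to 3. With that level as a covariate the difference was 3.18 for AT1G10585 and 1.49 for JMT, each with the sign it had without it, but the covariate partly overlaps with the group. The part of these controls in the shared pattern was not tested. Early stress transcripts, which respond within minutes to touch and wounding, ran in the opposite order in wild type, but not in epiF3. WRKY53, which encodes a WRKY transcription factor active in leaf senescence, had 3.11, 3.90 and 3.87 in epiF3, against 7.10, 8.06 and 4.51 in wild type. The highest wild-type array for WRKY53 was replicate 2, where AT1G10585 and JMT were lowest of their group. All 3 measured genes of that list of 10 (WRKY53, the zinc finger gene STZ and the calmodulin-like gene CML37) were, within wild type, lowest on replicate 3 and highest on replicate 2. As with AT1G10585 and JMT, all 3 were lowest on replicate 1 in epiF3. Their summed level was 5.74 to 7.03 in epiF3 and 6.16 to 9.76 in wild type on the log2 scale, and its part in the levels of AT1G10585 and JMT was not tested. None of them passed the limma threshold (median difference -1.51, against 0.030 over all probe sets; 1 of 3 had an unadjusted p under 0.05, against 10.9% of all probe sets), and WRKY53 had an adjusted p of 0.194. Without wild type replicate 3, 2 of 3 passed as lower, with WRKY53 at -3.95, where 287 of all 22746 probe sets passed as lower.

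**Figure D2:**
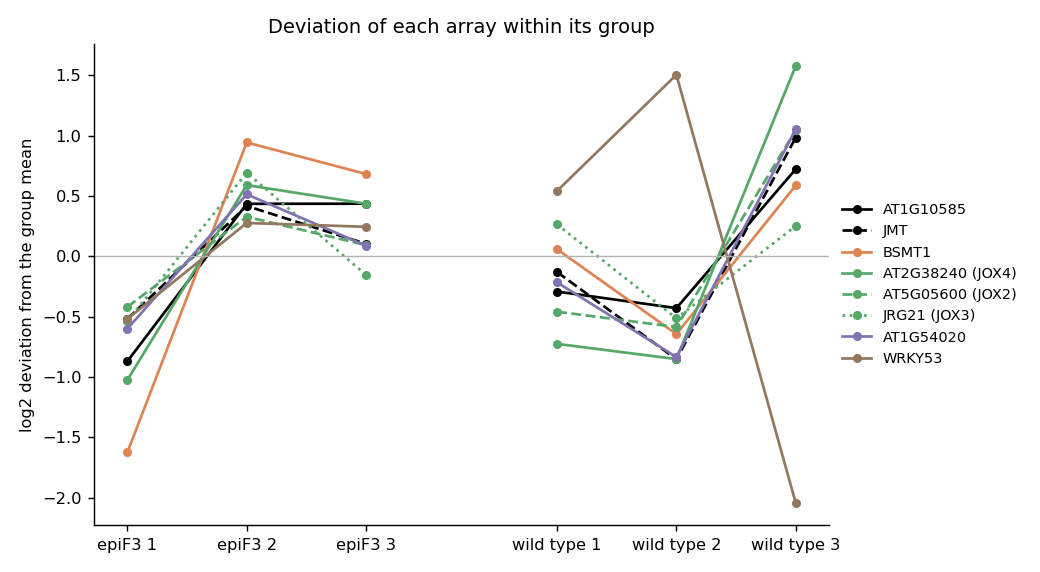
Deviation of each array from the mean of its own group, in log2 units, for AT1G10585, JMT and 6 other genes named in the text, with epiF3 left of wild type; lines join the arrays of 1 gene within a group as a guide only. AT1G10585 and JMT are lowest on epiF3 replicate 1 and wild type replicate 2 and highest in wild type on replicate 3. WRKY53 is highest on wild type replicate 2 but, like both genes, lowest on epiF3 replicate 1.

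The genes nearest to AT1G10585 over the 6 arrays were BSMT1, AT2G38240, AT1G54020, AT5G05600 and JMT, by the root mean square difference of values centred on their own mean. These genes are near because they share the group difference as well as the order of arrays. BSMT1, a SABATH enzyme that methylates benzoic and salicylic acid, was nearest (0.43). Its values were 4.76, 7.33 and 7.07 in epiF3, against 2.75, 2.05 and 3.28 in wild type. AT2G38240, the jasmonate oxidase JOX4, followed at 0.44. It had 7.36, 8.97 and 8.82 in epiF3, against 3.70, 3.57 and 6.0 in wild type. Neither gene overlapped between the groups, and epiF3 replicate 1 and wild type replicate 3 were the arrays closest to the other group for both. AT1G54020, of the GDSL family of esterases and lipases, had 6.38, 7.49 and 7.06 in epiF3, against 4.18, 3.56 and 5.45 in wild type.

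The gene nearest to JMT was AT5G05600, the jasmonate oxidase JOX2, at 0.19 log2 units. It had 7.66, 8.40 and 8.17 in epiF3, against 5.59, 5.46 and 7.09 in wild type, so the step between wild type replicate 3 and the other two wild-type arrays (1.57) was close to that of JMT (1.48). Next came AT5G06570, a carboxylesterase family gene, AT1G51090, the dehydrin gene LTI30 and AT1G54020, at 0.30, 0.30, 0.30 and 0.32. Within groups alone, AT1G54020 was the nearest of all to JMT, at 0.069. LTI30 had 6.51, 7.55 and 7.65 in epiF3, against 5.55, 5.06 and 6.22 in wild type. AT5G06570 had 4.41, 5.03 and 4.88 in epiF3, against 2.66, 2.62 and 3.55 in wild type.

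In all, 7 genes besides AT1G10585 and JMT were among the 5 nearest of either, and 2 of them (AT1G54020 and AT5G05600) were among the nearest of both. All 7 had the array orders of AT1G10585 and JMT and groups that did not overlap, as follows from choosing them for likeness. Over all probe sets, 1.04% had these orders and no overlap with epiF3 higher. Their differences between epiF3 and wild type belong to the pattern they were chosen for and are a description, with no test. They were 3.96 for AT2G38240, 3.70 for BSMT1, 2.58 for AT1G54020, 2.03 for AT5G05600, 1.83 for AT5G06570, 1.63 for LTI30 and 1.59 for AT1G51090.

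Other genes of the jasmonate pathway were taken from lists of 67 genes, of which 11 were measured under a name. In limma none passed in either direction, where 0.598% of probe sets did. At an unadjusted p under 0.05 there were 4 of 11, against 10.9% of all probe sets. The median difference was 0.33, against 0.030 over all probe sets tested. The groups did not overlap, with epiF3 higher, for 3 of 11, all of them jasmonate oxidases, against 9.75% of all probe sets. AT2G38240 and AT5G05600, picked above for likeness, are among these 11. The count of calls depended on the setting, and so did that over all 22746 probe sets, given in parentheses for either direction. As higher, 2 passed with median centring (173), 3 with array weights (449) and 2 without wild type replicate 3 (402). Without the dimmest 40% of probe sets 2 of 10 passed, against 188 of 13647. PDF1.2 alone passed when wild type replicate 1 was left out (64).

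The 4 measured genes of jasmonate conversion and turnover were all oxidases, and had positive differences with a median of 1.96. AT2G38240 (JOX4, difference 3.96, SE 0.68) had a limma adjusted p of 0.0564, and AT5G05600 (JOX2, 2.03, SE 0.42) one of 0.0979. Both genes were also picked above for likeness to AT1G10585 or JMT, group difference included, so nothing is read from their p-values. Without wild type replicate 3 the difference was 4.75 for AT2G38240 and 2.55 for AT5G05600. JRG21 (JOX3, AT3G55970) had 4.90, 6.13 and 5.29 in epiF3, against 3.81, 3.04 and 3.80 in wild type (difference 1.89, SE 0.34, limma adjusted p = 0.0629), and passed with median centring, without the dimmest 40% and with array weights. Within wild type it was highest on replicate 1, unlike AT1G10585 and JMT, with replicate 3 almost level with it. AT3G11180 (JOX1) stayed at 2.08 to 2.22 in epiF3 and 1.94 to 2.13 in wild type, below the 25th percentile of every array.

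Of the listed genes, only 2 of 18 for jasmonate synthesis and 2 of 23 for signalling were measured. Those measured had smaller differences, and the other genes of these steps were not seen. OPCL1, a ligase that activates a jasmonate precursor in peroxisomes, had 7.27, 7.43 and 7.44 in epiF3, against 7.70, 7.83 and 7.25 in wild type (-0.21, SE 0.17, limma adjusted p = 0.689). AIM1, an enzyme of beta-oxidation, had a difference of -0.063 with a standard error of 0.19. In signalling, MYC3 had 4.38, 4.54 and 4.34 in epiF3, against 4.61, 4.59 and 4.72 in wild type (-0.22, SE 0.12, limma adjusted p = 0.574), and MYC4 had a difference of 0.04 with a standard error of 0.22. MYC3 did not overlap between groups, with epiF3 lower, as did 7.11% of all probe sets.

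Of a list of 10 jasmonate-responsive genes 3 were measured, and none of these was among the 5 nearest to AT1G10585 or JMT. THI2.1, a thionin, had 3.47, 4.15 and 3.90 in epiF3, against 3.47, 3.46 and 3.00 in wild type (0.53, SE 0.21, limma adjusted p = 0.413). The plant defensin gene PDF1.2 had 7.08, 6.97 and 6.89 in epiF3, against 7.65, 5.44 and 5.44 in wild type. The wild-type arrays of PDF1.2 thus split with replicate 1 high, an order different from that of AT1G10585 and JMT, and the groups overlapped (0.80, SE 0.54, limma adjusted p = 0.637). Without wild type replicate 1, PDF1.2 passed the threshold in limma (1.54). In likeness among 13512 probe sets PDF1.2 ranked 1549 to AT1G10585 and 8125 to JMT, and THI2.1 ranked 407 to AT1G10585 and 789 to JMT.

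**Figure D3:**
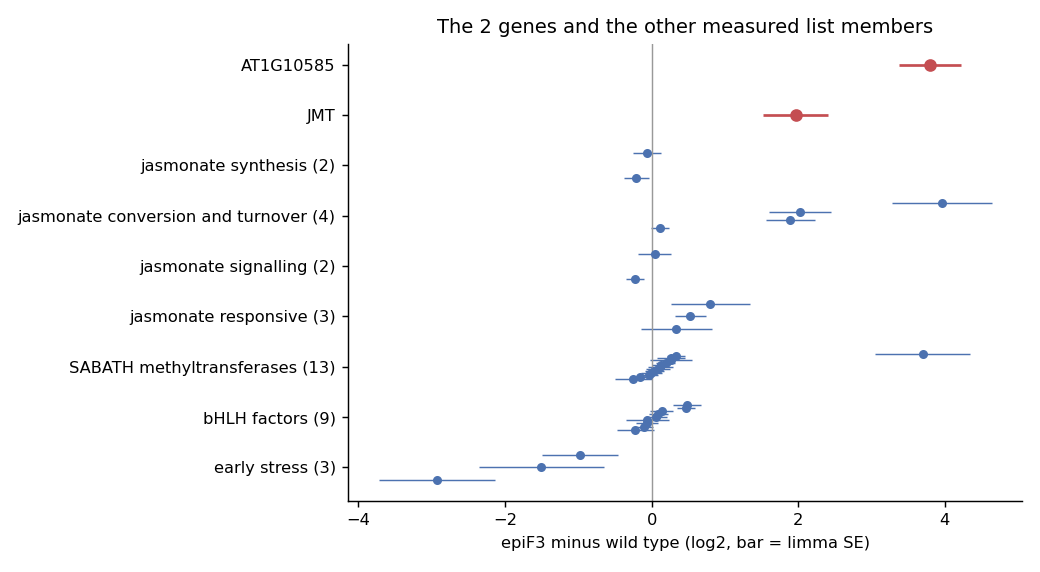
Difference between epiF3 and wild type in log2 units for AT1G10585 and JMT (red) and for the measured members of each gene list (blue, number in parentheses); bars are limma standard errors. The points far to the right besides AT1G10585 and JMT are AT2G38240, AT5G05600 and JRG21 among jasmonate conversion genes and BSMT1 among SABATH methyltransferases.

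Of the SABATH family other than JMT, 13 of 21 listed genes were measured. None passed the threshold in limma, as against 0.598% of all probe sets, and 2 of 13 had an unadjusted p under 0.05, against 10.9% of all. The median difference was 0.12, against 0.030 over all probe sets. BSMT1 stood apart from the other 12 in size, with a difference of 3.70 (SE 0.65, limma adjusted p = 0.0577), against 0.33 for AT5G38780 as the next highest. BSMT1 was also picked above for likeness to AT1G10585, group difference included, so nothing is read from its p-value. Without epiF3 replicate 1 its difference was 4.51. AT3G21950 was the one other member well above the bottom of the scale, at 4.81, 4.98 and 4.43 in epiF3, against 5.48, 4.90 and 4.59 in wild type (-0.25, SE 0.25). The remaining 11 lay at or below 2.89 on all arrays, near the bottom of the scale, where a change would be hard to see.

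Of other bHLH factors, 9 of 35 listed genes were measured, and none passed the threshold in limma, as against 0.598% of all probe sets. At an unadjusted p under 0.05 there were 2 of 9, against 10.9% of all, and the median difference was 0.061, against 0.030 over all probe sets. The smallest p was that of AT4G00870 (bHLH14, which restrains jasmonate responses), with 2.81, 2.82 and 2.68 in epiF3, against 2.39, 2.23 and 2.31 in wild type (0.46, SE 0.12, limma adjusted p = 0.181). Its groups did not overlap, with epiF3 higher, as in 9.75% of all probe sets, and all its values were low. AT4G25410 (bHLH126) had 2.11, 2.28 and 2.82 in epiF3, against 1.92, 1.93 and 1.92 in wild type. ILR3, a bHLH regulator of iron balance, stayed between 7.92 and 8.01 in epiF3 and between 8.01 and 8.15 in wild type.

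Measured genes next to AT1G10585 and JMT on chromosome 1 had much smaller differences. Beside AT1G10585, AT1G10580 differed by -0.24 (SE 0.15) and AT1G10590 by -0.0040 (SE 0.12), and AT1G10590 changed sign with median centring (0.067) and on leaving out single arrays. Beside JMT, AT1G19620 differed by -0.19 (SE 0.15) and AT1G19650 by 0.17 (SE 0.27). The adjusted p of these 4 genes was 0.626 to 0.993 in limma, and arrays of the groups overlapped for all 4.

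The labelled tissue was checked against marker genes, and leaf transcripts were high on all arrays. The 2 of 6 leaf markers measured, RCA (Rubisco activase) and LHCB4.1 (an antenna protein), had a summed level of 13.1 to 13.5 in epiF3 and 13.4 to 13.5 in wild type on the log2 scale. RCA overlapped between the groups (-0.024, SE 0.15). LHCB4.1 did not, with epiF3 lower (-0.26, SE 0.13), as in 7.11% of all probe sets. JMT is known from flowers, and the 2 of 11 flower markers measured, AMS of anthers and SWEET9 of nectaries, lay at 2.02 to 2.65 in epiF3 and 1.87 to 2.31 in wild type, near the bottom of the scale. The 3 of 4 root markers measured had a summed level of 4.70 to 5.23 in epiF3 and 4.76 to 5.14 in wild type. None of these 7 markers passed the threshold in limma, and no flower organ identity gene was measured under a name.

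**Figure D4:**
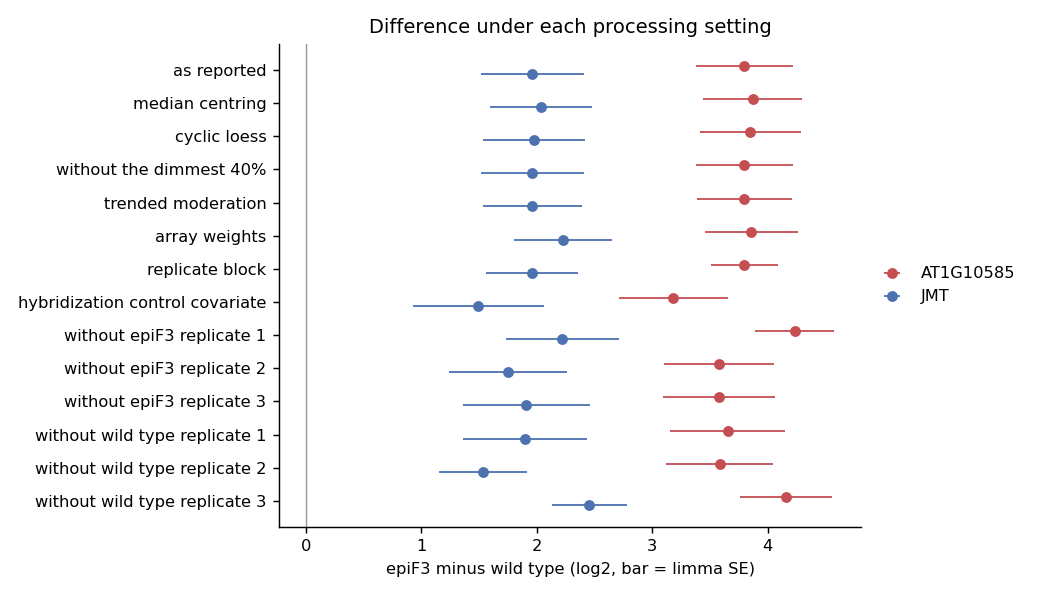
Difference between epiF3 and wild type in log2 units for AT1G10585 (red) and JMT (blue) as reported and under each of 13 other settings; bars are limma standard errors. AT1G10585 stays between 3.18 and 4.23 and JMT between 1.49 and 2.46.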

How the data were processed

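Values deposited by the authors are on the log2 scale, with 1 for each probe set on each array. The submitters' processing notes name RMA and the affy package, without versions, and the log2 scale was taken from the range of the values. Background method and detection calls: not given in the sources used here. Of 22810 probe sets, 64 array controls were left out and 22746 tested; 13513 name 1 gene, and 13436 of these were matched to a RefSeq table of TAIR10.1, used for symbols and gene order only. Array medians were 4.08 to 4.32, lowest on epiF3 replicate 3, and values show levels relative to other transcripts, not amounts per plant. The comparison of epiF3 with wild type used limma 3.58.1 under R 4.3.3 (no block, no filter, two-sided), with Benjamini-Hochberg adjustment and a threshold of 0.05, tested on simulated data. Nothing in the labels says whether replicates came from separate cultivations, so p-values measure the spread between these samples; the number of arrays limits the precision. Genes and lists were chosen with earlier results of these data known. Named were both genes, from each list the members past the threshold or that with the smallest p, the measured neighbours and the 5 genes nearest to each; the other genes named from lists were chosen after their values were seen. Python 3.11.15, numpy 2.4.6, pandas 2.3.3 and matplotlib 3.10.9 served for the rest.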

Additional observations from a re-analysis of the deposited data

Results flagged for a closer look

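Hybridization controls, left out of the comparison of plant transcripts, had a mean of 10.5 on epiF3 replicate 3 and of 8.36 on epiF3 replicate 2, both above the highest wild-type array (8.21). Replicate 3 of epiF3 also had the lowest median (4.08) and the lowest array weight (0.305, against 0.712 to 1.86 on the other arrays). Without epiF3 replicate 3 the difference was 3.58 for AT1G10585 and 1.91 for JMT.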

How the results depend on the processing

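AT1G10585 and JMT kept the sign of their difference under all 13 alternatives and moved by less than their SD within groups. Their limma calls did change. AT1G10585 did not pass with the hybridization control covariate or without epiF3 replicate 2, epiF3 replicate 3 or wild type replicate 1. JMT passed with array weights and without wild type replicate 3. Both genes were picked for this difference, so nothing is read from these calls. With 1 array left out the range was 3.58 to 4.23 for AT1G10585, 1.54 to 2.46 for JMT and 0.22 to 0.32 for their distance within groups. Settings that change only the fit leave that distance as it is. Over all probe sets 136 passed the limma threshold, against 449 with array weights, 74 with the replicate block, 24 with the hybridization control covariate and 33 to 402 with 1 array left out (33 without epiF3 replicate 2, 402 without wild type replicate 3). With median centring 173 passed, with cyclic loess 182, with trended moderation 168 and without the dimmest 40% 188 of 13647. Arrays with the same number showed no shared deviation (correlations across probe sets of -0.077, -0.042 and -0.045), and with the replicate block JMT kept a difference of 1.96 and AT1G10585 one of 3.80. Of 11 other jasmonate genes, 0 passed, against 2 with median centring, 2 without the dimmest 40%, 1 with trended moderation, 3 with array weights, 1 with the replicate block and 0 to 2 with 1 array left out. Of 13 other SABATH genes, 0 passed, against 1 with median centring, 1 without the dimmest 40% (2 genes left to test), 1 with trended moderation, 1 with array weights and 0 to 1 with 1 array left out. Of 3 early stress genes 0 to 2 passed with 1 array left out. None of the 9 other bHLH factors passed under any alternative run (4 left to test without the dimmest 40%). Signs turned for AT1G10590 (0.067 with median centring, 0.026 without epiF3 replicate 1, 0.025 without wild type replicate 3), SWEET9 (-0.12 with the covariate) and AT1G19650 (-0.036 without epiF3 replicate 2, and up to 0.50 without epiF3 replicate 3). The causes were not tested.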
